A study of Mus musculus with 48 samples.

Results

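The 44 genes described here drive the cell cycle and copy DNA. They were chosen by name, and every one had at least 1 cluster of transcription start sites in both deposited CAGE tables, which hold 10098 named genes for the DO11.10 T hybridoma and 10219 for primary CD4+ T cells. They were kept apart as 9 G1 control genes (cyclins D2, D3, E1 and E2, their kinases, E2f1 and E2f2), 19 replication genes and 16 mitosis genes. CAGE counts the 5′ ends of capped RNA, so a value reflects the amount of capped RNA from a start site and does not scale with the length of the gene. The values are RPM, reads scaled to the total of their library, and those of all clusters of a gene were summed.

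DO11.10 is a T cell hybridoma, an immortal fusion of a T cell with a thymoma line; it responds to pOVA, a peptide of ovalbumin, and its strain is given as BALB/c x AKR/J. The 26 hybridoma libraries came from cells given 0, 1, 10, 100, 1000 or 10000 nM pOVA, each with PD-1 engaged or not engaged. The 22 primary libraries came from CD4+ T cells of BALB/cCrSlc mice given 0, 10, 100, 1000 or 10000 ng/ml of 2C11, an antibody to CD3, again with PD-1 engaged or not engaged. Each of the 22 groups had 2 libraries, or 3 at the dose of 10000. How PD-1 was engaged, how long the cells were stimulated and whether each replicate had its own culture or animal is not in the labels, so p-values measure the spread between these libraries.

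Cyclin D with CDK4 or CDK6, and then cyclin E with CDK2, carry a cell out of G1 by releasing E2F factors from the retinoblastoma protein family. E2F factors switch on the genes of DNA replication: the MCM helicase, its loaders Cdc6 and Cdt1, the sliding clamp Pcna and the enzymes that make nucleotides. Mitosis genes such as cyclin B, the Aurora and Polo kinases and the kinesins peak later, in G2 and M. A hybridoma divides without antigen, whereas a resting CD4+ T cell must be stimulated through its receptor before it enters the cycle. Whether the CD4+ cells used here were resting before stimulation was not tested. Their mitosis genes were already well expressed then, as given below. In bulk RNA such as this, fewer cells in a phase and less RNA per cell cannot be told apart.

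Depth was estimated from the RPM values themselves. The hybridoma libraries held about 7787000 to 19705000 tags and the CD4+ libraries about 4423000 to 22806000, so 1 tag was worth at most 0.226 RPM. Replicate libraries differed by more than sampling noise in every pair (chi-square per degree of freedom 5.91 to 51.9). T cell markers were present in both cell types, with Cd3e at 239 to 377 RPM in the hybridoma and 501 to 840 RPM in CD4+ cells; Cd4 was measured only in CD4+ cells, at 80.8 to 159 RPM. B cell markers were present too, with Cd79a at 25.1 to 63.8 RPM in CD4+ cells. Their summed level was 1016 and 1253 RPM in the hybridoma libraries number 2 at dose 0, with and without PD-1 engagement, against 91.7 to 295 RPM in the other hybridoma libraries. In CD4+ cells it was 584 to 1250 RPM with PD-1 engaged and 552 to 940 RPM without. These libraries and markers are given again beside the results they touch.

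All 3 classes were well expressed in both cell types before stimulation. In unengaged hybridoma cells at dose 0, the mean level of a member was 14.2 RPM (E2f2) to 242 RPM (Cdk4) among G1 control genes, 32.6 RPM (Cdt1) to 299 RPM (Mcm6) among replication genes and 34.6 RPM (Aurkb) to 189 RPM (Mki67) among mitosis genes. In unengaged CD4+ cells at dose 0 the same classes spanned 18.4 RPM (E2f1) to 223 RPM (Ccnd3), 24.7 RPM (Cdc6) to 281 RPM (Mcm6) and 22.4 RPM (Cenpe) to 265 RPM (Birc5). Mcm6, a subunit of the replicative helicase, was the highest replication gene in both. The 2 tables were normalized separately, so levels are not compared between them. The defining proliferation marker Mki67 was at 80.4 and 94.2 RPM in the unengaged CD4+ libraries that received no 2C11. The B-type cyclin Ccnb2 was at 55.4 and 62.9 RPM in the same libraries. Changes under 2C11 are therefore not read as entry into the cycle from rest.

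Because CAGE places the 5′ ends of RNA at start sites, promoters of members are shown for the elements usually linked to each class. RefSeq windows of GRCm38.p6, a later build than the mm9 of the deposited tables, reached from 250 bases before to 50 after each start and were found for 37 of the 44 members (44 windows). The E2F element (TTTCCCGC, TTTCGCGC, TTTGCCGC or TTTGGCGC, on either strand) was in 9 of 22 replication windows (40.9%), in 2 of 9 G1 control windows (22.2%) and in 0 of 13 mitosis windows, against 2.26% of all 32851 promoters. The cell cycle homology region, TTTGAA on either strand, was in 9 of 13 mitosis windows (69.2%), 2 of 22 replication windows (9.09%) and 1 of 9 G1 control windows, against 17.9% of all promoters. CCAAT on either strand was in 12 of 13 mitosis windows (92.3%), 13 of 22 replication windows (59.1%) and 4 of 9 G1 control windows (44.4%), against 37.4% of all promoters. Each pattern was counted on its own, and matches of 2 patterns may share bases. A pattern match describes letters and is no sign of binding. The windows below run 5′ to 3′ along the gene's strand from 150 bases before to 20 after the RefSeq start, with every match in capitals: 2 replication genes with E2F matches, Mcm6 and the helicase loader Cdc6, then 3 mitosis genes with TTTGAA or its reverse complement TTCAAA, namely cyclin B2, topoisomerase 2 alpha and the spindle kinesin Kif11. GCGGGAAA and GCGCGAAA are E2F matches on the opposite strand, the longest run in Mcm6 holds a match on each strand, and ATTGG is CCAAT on the opposite strand.
Mcm6 (chr1:128359686-128359855, minus strand): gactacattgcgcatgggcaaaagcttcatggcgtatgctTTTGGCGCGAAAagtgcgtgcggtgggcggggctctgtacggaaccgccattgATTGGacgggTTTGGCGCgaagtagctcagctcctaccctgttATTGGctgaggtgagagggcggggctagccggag
Cdc6 (chr11:98908001-98908170, plus strand): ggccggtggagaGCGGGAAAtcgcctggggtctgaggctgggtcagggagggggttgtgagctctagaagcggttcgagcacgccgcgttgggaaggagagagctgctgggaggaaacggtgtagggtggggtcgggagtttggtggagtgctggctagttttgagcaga
Ccnb2 (chr9:70421535-70421704, minus strand): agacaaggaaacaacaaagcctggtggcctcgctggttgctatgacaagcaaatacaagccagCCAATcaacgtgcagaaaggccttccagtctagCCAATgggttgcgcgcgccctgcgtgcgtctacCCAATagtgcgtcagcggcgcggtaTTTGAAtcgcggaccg
Top2a (chr11:99024170-99024339, minus strand): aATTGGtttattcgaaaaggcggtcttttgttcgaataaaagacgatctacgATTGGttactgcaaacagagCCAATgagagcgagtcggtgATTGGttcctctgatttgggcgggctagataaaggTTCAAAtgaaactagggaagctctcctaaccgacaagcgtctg
Kif11 (chr19:37376232-37376401, plus strand): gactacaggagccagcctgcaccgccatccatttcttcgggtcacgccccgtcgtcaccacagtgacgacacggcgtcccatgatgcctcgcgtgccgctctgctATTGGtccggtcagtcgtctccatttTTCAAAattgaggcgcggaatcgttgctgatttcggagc

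In the hybridoma, the highest antigen dose lowered members of all 3 classes and raised none by the test used. At 10000 nM pOVA against 0 nM without PD-1 engagement, 31 of the 44 members fell (limma on log2(RPM + 1), adjusted p under 0.05), 5 of 9 G1 control genes, 16 of 19 replication genes and 10 of 16 mitosis genes. Of all 10094 genes tested, 20.8% fell and 8.09% rose. The median log2 difference was -0.39 for G1 control, -0.55 for replication and -0.40 for mitosis genes, against -0.18 for all genes. The shift of all genes was -0.04 after quantile normalization, which called 32 members lower and 1 higher (14.2% and 12.9% of all genes). The libraries did not overlap and were lower at 10000 nM for 41 members, against 35% of all genes. Summed over the 19 replication genes, the level was 1624, 1739 and 1532 RPM at 10000 nM and 2158 and 2310 RPM at 0 nM.

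Among G1 control genes, cyclin D3 fell most. Ccnd3 had 67.2, 70.2 and 46.5 RPM at 10000 nM, against 145 and 143 RPM at 0 nM (log2 difference -1.24 ± 0.18 SE, adjusted p = 5.03e-05). E2f2, an activating E2F factor, had 6.52, 5.87 and 5.52 RPM, against 13.6 and 14.7 RPM (-1.12 ± 0.18, adjusted p = 0.000113). E2f1, the best known activator of replication genes, had 19.1, 22.1 and 12.3 RPM, against 39.5 and 34.2 RPM (-1.04 ± 0.20, adjusted p = 0.000663). For all 3 genes each stimulated library lay below each unstimulated one. Cyclin D2 had the other sign: Ccnd2 was at 39.2, 31.3 and 36.1 RPM at 10000 nM and 26.9 and 21.9 RPM at 0 nM. Its groups did not overlap, but the difference of 0.53 ± 0.20 had an adjusted p of 0.0519, and it was called higher by quantile normalization and by edgeR.

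Replication genes fell together with mitosis genes. Tk1, the thymidine kinase of the salvage pathway, had 21.0, 24.2 and 17.1 RPM at 10000 nM, against 39.3 and 40.3 RPM at 0 nM (-0.92 ± 0.17, adjusted p = 0.000644). Uhrf1, which carries DNA methylation over to the new strand, had 45.0, 42.1 and 37.5 RPM, against 66.4 and 88.0 RPM (-0.87 ± 0.15, adjusted p = 0.000297). Pola1, the catalytic subunit of the primase-linked polymerase, had 52.0, 56.4 and 64.3 RPM, against 93.9 and 114 RPM (-0.84 ± 0.17, adjusted p = 0.00101). In each of them the groups were apart. Pcna, the sliding clamp, was among the 3 replication genes that did not pass, with 209, 243 and 213 RPM at 10000 nM and 249 and 225 RPM at 0 nM (-0.10 ± 0.14, adjusted p = 0.63). Mki67 had 109, 129 and 93.6 RPM, against 186 and 192 RPM (-0.78 ± 0.24, adjusted p = 0.0219). The mitotic kinase Plk1 had 62.4, 60.3 and 47.0 RPM, against 92.5 and 98.1 RPM (-0.75 ± 0.14, adjusted p = 0.000555). The chromosomal passenger kinase Aurkb had 21.7, 24.4 and 16.2 RPM, against 27.7 and 41.4 RPM (-0.70 ± 0.24, adjusted p = 0.0374). The mitosis genes named were lower in every stimulated library too.

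**Figure D1:**
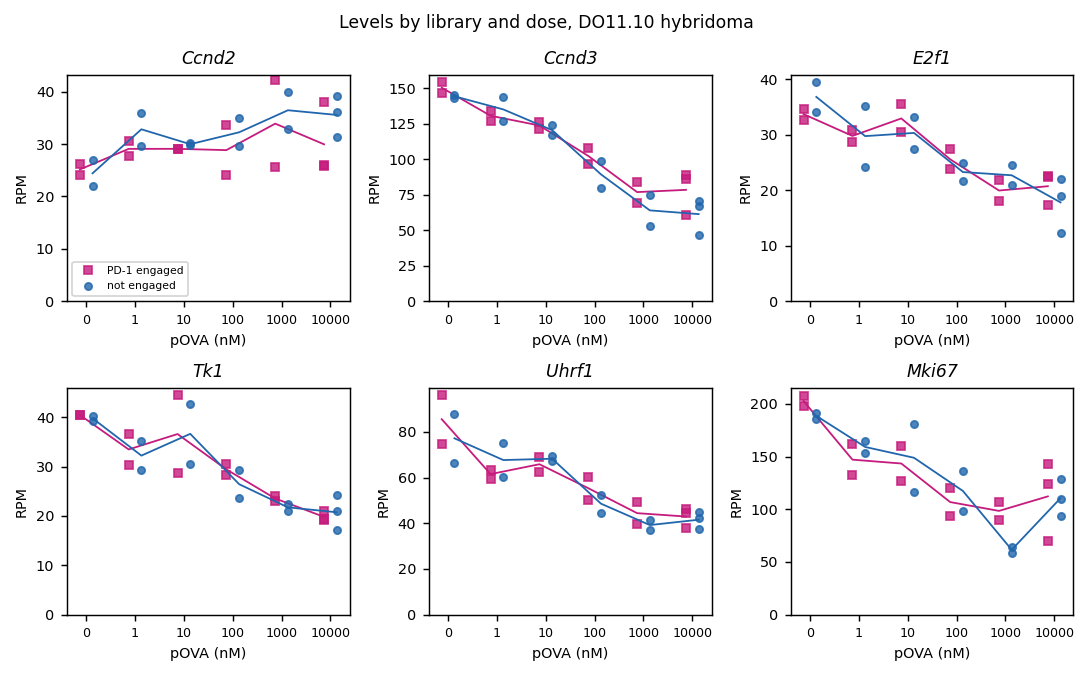
RPM of Ccnd2, Ccnd3, E2f1, Tk1, Uhrf1 and Mki67 in each hybridoma library by pOVA dose in nM, with PD-1 engaged drawn left of not engaged at each dose; points are libraries and lines join group means. Ccnd3 lies between 46.5 and 70.2 RPM in the unengaged libraries at 10000 nM and at 145 and 143 RPM at 0 nM, while Ccnd2 moves the other way.

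The decrease appeared over the dose series. No member passed the test at 1 or 10 nM (limma), where 0% of all genes fell and 0% (1 nM) or 0.0297% (10 nM) rose. At 100 nM 8 members fell, against 3.19% of all genes (2.84% rose), with E2f2 (-1.01), Ccnd3 (-0.69), Uhrf1 (-0.65) and Pola1 (-0.64) at the head; this fell to 1 member without dose 0 replicate 2, 0 without 100 nM replicate 1 and 1 without 100 nM replicate 2. At 1000 nM 31 members fell, against 23.4% of all genes (7.14% rose), and the all-gene median was -0.24. Mki67 was lowest at 1000 nM, at 64.1 and 58.9 RPM, against 186 and 192 RPM at 0 nM, a log2 difference of -1.60. It stood above that again in the 3 libraries at 10000 nM.

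A limit of this contrast is the dose 0 library number 2 with the high B cell marker level. Without both dose 0 libraries of that number, 20 members fell at 10000 nM, all of them among the 31, and 13 at 1000 nM. The median of the members was then -0.38 at 10000 nM, against -0.07 for all genes. At 1000 nM, 18 fell without replicate 2 of that dose. At 10000 nM, 20 members fell without replicate 3 of 10000 nM, and 20 by edgeR (16.9% of all genes). Counts with libraries left out, here and elsewhere, compare settings with each other, not members with all genes. With the B cell marker level as a covariate 26 fell (18.7% of all genes), of which 25 were among the 31.

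In CD4+ T cells most mitosis genes fell under stimulation, while the other 2 classes held changes of both signs. At 10000 ng/ml 2C11 against 0 ng/ml without PD-1 engagement, 15 of 16 mitosis genes fell and none rose. Of the replication genes 5 rose and 4 fell of 19, and of the G1 control genes 3 rose and 2 fell of 9. Among all 10217 genes tested 40.1% fell and 27.5% rose. The shares of replication and G1 control genes that rose were near that of all genes, and the shares that fell were below it. The median log2 difference was -0.81 for mitosis, 0.00 for replication and 0.17 for G1 control genes, against -0.15 for all genes (-0.03 after quantile normalization). Summed over the mitosis genes, the level was 870.0, 915 and 844 RPM at 10000 ng/ml, against 1539.9 and 1636 RPM at 0 ng/ml. The replication genes summed to 1893, 1984 and 1902 RPM, against 1818 and 1842 RPM. Both sums had groups that did not overlap. The replication sum is no sign of a rise of the class, since 10 replication genes had a positive and 9 a negative difference. Between group means, the gap in that sum was smaller than the gap of Pcna alone, whose values are given below. Of 11 T cell markers 9 fell, and they summed to 3980 to 4026 RPM at 10000 ng/ml and 5048 to 5191 RPM at 0 ng/ml. Of 9 CD8 and cytotoxic markers 4 were measured, without Cd8a, and 2 rose (Gzmb and Nkg7) and 1 fell (Gzma); they summed to 268 to 280 RPM at 10000 ng/ml and 104 to 134 RPM at 0 ng/ml, and the groups did not overlap. The part of these markers in the result was not tested. With the B cell marker level as a covariate the calls were the same 8 higher and 21 lower members.

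G1 control genes held the largest changes of both signs among the members. E2f2 had 15.3, 16.6 and 16.7 RPM at 10000 ng/ml, against 93.3 and 108 RPM at 0 ng/ml (-2.56 ± 0.11, adjusted p = 1.92e-13). Ccnd3 had 121, 140 and 117 RPM, against 206 and 240 RPM (-0.82 ± 0.10, adjusted p = 3.63e-07). Ccnd2 had 66.8, 75.7 and 80.5 RPM, against 30.6 and 36.8 RPM (1.12 ± 0.17, adjusted p = 7.12e-06). The 3 genes had groups that did not overlap, and D2 and D3, cyclins that bind the same kinases, changed in opposite directions. Those kinases rose, Cdk6 by 0.81 ± 0.14 and Cdk4 by 0.77 ± 0.09 (adjusted p = 3.12e-05 and 1.84e-07). E2f1 had 21.7, 22.1 and 24.6 RPM, against 17.0 and 19.9 RPM, and did not pass (0.29 ± 0.15, adjusted p = 0.0988), although quantile normalization and edgeR called it higher.

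The replication genes that rose included the helicase subunit Mcm2, with 131, 146 and 131 RPM at 10000 ng/ml, against 78.2 and 85.6 RPM at 0 ng/ml (0.72 ± 0.09, adjusted p = 1.24e-06). Pcna had 329, 321 and 355 RPM, against 212 and 235 RPM (0.58 ± 0.09, adjusted p = 9.66e-06). Fen1, the nuclease that trims Okazaki fragments, had 51.1, 54.5 and 46.5 RPM, against 37.4 and 37.6 RPM (0.42 ± 0.12, adjusted p = 0.00382). The stimulated libraries were above the unstimulated ones in each case. The other 2 that rose were also helicase subunits, Mcm3 (0.42) and Mcm4 (0.24). Those that fell were Mcm6 (-0.39), Uhrf1 (-0.32), Lig1 (-0.30), the ligase that joins Okazaki fragments, and Rrm2 (-0.24), the small subunit of ribonucleotide reductase, so the helicase itself held subunits of both directions.

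Mitosis genes of CD4+ cells fell as a class. Mki67 had 25.3, 30.1 and 28.2 RPM at 10000 ng/ml, against 80.4 and 94.2 RPM at 0 ng/ml (-1.61 ± 0.26, adjusted p = 1.59e-05). Ccnb2, a B-type cyclin, had 20.1, 19.2 and 19.97 RPM, against 55.4 and 62.9 RPM (-1.53 ± 0.11, adjusted p = 4.69e-10). Cenpa, the histone H3 variant of centromeres, had 85.1, 83.6 and 78.1 RPM, against 184 and 181 RPM (-1.14 ± 0.07, adjusted p = 8.73e-11). No stimulated library reached an unstimulated one in these genes. The other 12 that fell ranged from -1.08 (Kif11) to -0.55 (Bub1, a spindle checkpoint kinase). The 16th, Ccnb1, singled out after its values were seen, had 33.6, 29.2 and 29.0 RPM at 10000 ng/ml, against 12.2 and 56.7 RPM at 0 ng/ml. The unstimulated libraries lay on either side of the stimulated ones (0.19 ± 0.36, adjusted p = 0.65).

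**Figure D2:**
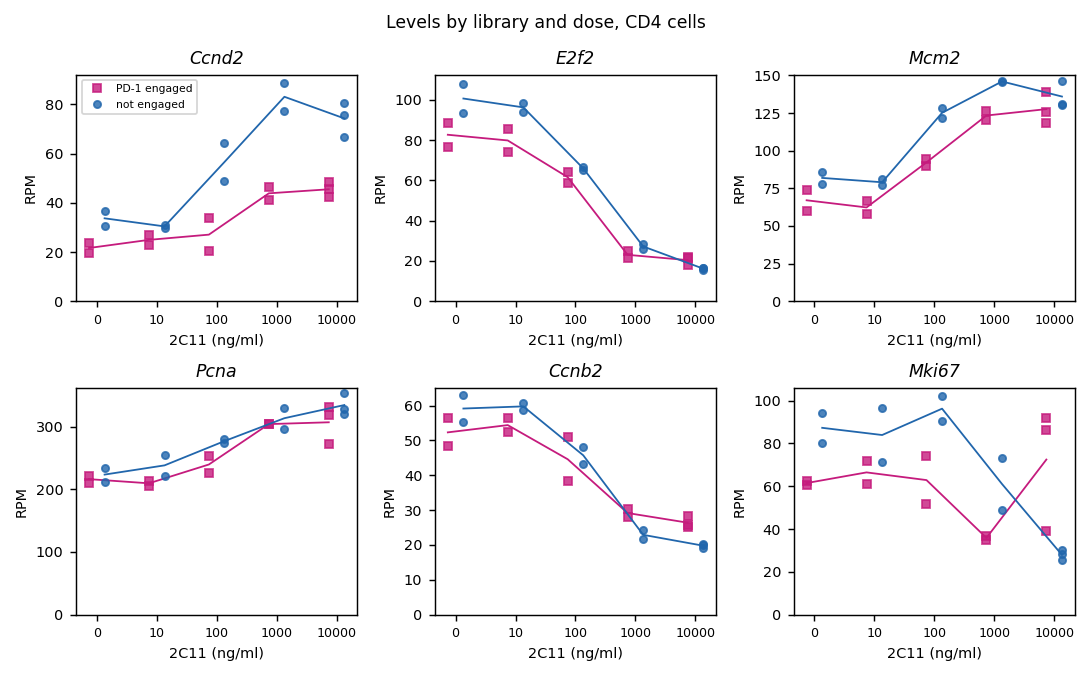
RPM of Ccnd2, E2f2, Mcm2, Pcna, Ccnb2 and Mki67 in each CD4+ library by 2C11 dose in ng/ml, with PD-1 engaged drawn left of not engaged at each dose; points are libraries and lines join group means. E2f2 and Ccnb2 are lowest at 10000 ng/ml, where Ccnd2, Mcm2 and Pcna are above their levels at 0 ng/ml, and Mki67 at 10000 ng/ml is higher with PD-1 engaged.

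Members passed the test from 100 ng/ml on. No member passed at 10 ng/ml (limma), where 0% of all genes passed in either direction. At 100 ng/ml 9 members rose, 7 of them replication genes, and 4 fell, against 19.2% and 7.21% of all genes; quantile normalization called 5 higher and 10 lower (14% and 13.5%), and 4 to 8 members passed in all when any 1 library of these groups was left out. Mcm2 was then already at 122 and 128 RPM, whereas Ccnb2 was at 43.3 and 48.1 RPM, between its levels at 0 and 10000 ng/ml. At 1000 ng/ml 11 rose and 16 fell, against 31.1% and 29.9% of all genes; quantile normalization called 9 higher and 22 lower (29.6% and 32%). Of these 16, 14 were mitosis genes and 0 were replication genes, of which 7 rose. Ccnd2 was highest at 1000 ng/ml, at 77.6 and 88.7 RPM, and E2f2 had 25.8 and 28.6 RPM there.

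**Figure D3:**
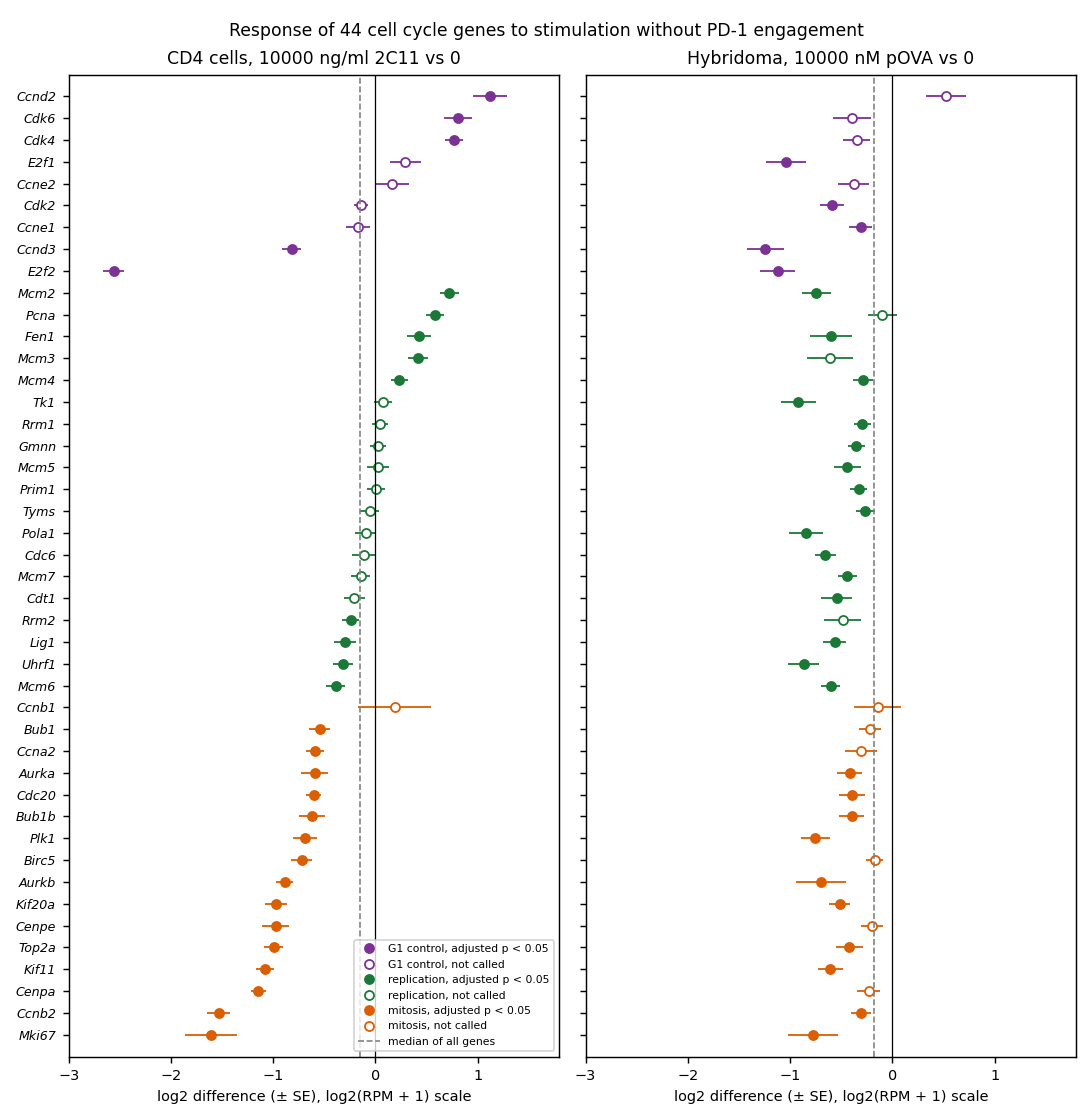
Log2 difference ± SE of each of the 44 members at dose 10000 against dose 0, PD-1 not engaged, in CD4+ cells and in the hybridoma, grouped by class; filled points passed the test and the dashed line marks the median of all genes. Mitosis genes lie to the negative side in both systems, except Ccnb1 in CD4+ cells (0.19), while replication genes lie between -0.92 and -0.10 in the hybridoma and on both sides of 0 in CD4+ cells.

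The difference between the 2 responses was tested as an interaction over the 9347 genes of both tables. Stimulation differed for 25 of 44 members. The log2 difference was higher in CD4+ cells than in the hybridoma for 17, of which 13 were replication genes and 4 G1 control genes, and lower for 8, of which 7 were mitosis genes, against 22.3% and 17.6% of all genes. After quantile normalization it was 13 and 10, against 23.7% each. Differences of 1 or more on the log2 scale were those of Mcm2 (1.47 ± 0.17, adjusted p = 4.72e-08), E2f1 (1.33 ± 0.26), Cdk6 (1.20 ± 0.24), Cdk4 (1.12 ± 0.16), Fen1 (1.02 ± 0.24) and Mcm3 (1.02 ± 0.26) on the higher side, with Tk1 (0.996 ± 0.20) next. On the lower side they were those of E2f2 (-1.44 ± 0.21) and Ccnb2 (-1.22 ± 0.15, adjusted p = 5.45e-08). The systems also differ in stimulus, dose unit and genetic background, which cannot be told apart here. The hybridoma side of this contrast holds the dose 0 library number 2 with the high B cell marker level. The interaction was not fitted with the B cell marker covariate or without both dose 0 libraries of that number.

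Lists of other genes of the same pathways were counted in the same way, and their counts stand against the same shares of all genes, 20.8% lower and 8.09% higher in the hybridoma and 40.1% lower and 27.5% higher in CD4+ cells. In the hybridoma at 10000 nM, 30 of 48 further replication genes fell and 0 rose, with a median of -0.44 against -0.18 for all genes; Pola2 (-0.98), Dck (-0.97) and Pold1 (-0.95) led them. Of 58 further mitosis genes 34 fell and 1 rose (median -0.42), led by Kif2c (-0.93), Ccnf (-0.89) and Kif22 (-0.88). In CD4+ cells at 10000 ng/ml 52 of the same 58 mitosis genes fell and 4 rose (median -0.85 against -0.15), with Cdc25b (-2.37), Nusap1 (-1.87) and Ndc80 (-1.53) the furthest. Of the 48 replication genes 16 rose and 13 fell (median 0.02). Without rescaling, the share that rose was thus near that of all genes and the share that fell below it. After quantile normalization 21 rose and 12 fell, and by edgeR 22 rose and 10 fell. The shares of all genes under these 2 scalings are not given here, so these counts are not set against them.

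CDK inhibitors and pocket proteins, the brakes of the cycle, were the other list with large changes. In the hybridoma 1 rose and 4 fell of 8 tested: the p53 target Cdkn1a rose by 1.90, and the pocket proteins Rbl2 and Rbl1 fell by 1.45 and 0.94 on the log2 scale. In CD4+ cells 3 rose and 5 fell of 8 (median -1.34): Cdkn1b, which encodes p27, fell by 3.65, Rbl2 by 2.47 and Cdkn2c by 1.66 on the log2 scale. Among further G1 genes, 9 rose and 3 fell of 14 in CD4+ cells, including E2f5 (1.34), Tfdp2 (-1.63) and the repressor E2f7 (-1.18). In the hybridoma 1 rose and 5 fell of those 14, and E2f7 fell by 1.45.

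In fits without pairs, PD-1 engagement left the members of the hybridoma without a call. Averaged over the 5 stimulated doses, 0 of 44 members passed in limma, and 0 with edgeR or quantile normalization; of all genes 0.0594% rose and 0.872% fell, and 536 of 10094 had an unadjusted p under 0.05. The log2 differences of the members, engaged minus not engaged, ran from -0.15 (Ccnd2, ± 0.09) to 0.16 (Ccnd3, ± 0.08), with a median of 0.03 against -0.00 for all genes. E2f1 (0.07 ± 0.09), Mki67 (0.07 ± 0.11) and Pcna (-0.03 ± 0.07) lay within their errors.

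Hybridoma libraries with the same number deviated together, and with each such pair as a block a few members passed. Ccnd3 then rose over the stimulated doses (0.16, blocked adjusted p = 0.0047), where 1.99% of all genes rose and 4.52% fell. At 10000 nM it had 86.0, 88.8 and 60.3 RPM with PD-1 engaged, against 67.2, 70.2 and 46.5 RPM without, higher in each of the 3 pairs although the groups overlap (0.35, blocked adjusted p = 0.0037; 0.921% of all genes rose). At 1000 nM 6 members rose with the block, 5 of them mitosis genes, against 5.32% of all genes. Mki67 had 107 and 89.8 RPM with PD-1 engaged, against 64.1 and 58.9 RPM without (0.67, blocked adjusted p = 0.006). The others were Aurka (0.41), Aurkb (0.33), Ccnd3 (0.27), Plk1 (0.24) and the anaphase activator Cdc20 (0.22), all chosen for naming after their values were seen.

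With PD-1 engaged, most G1 control and replication genes of CD4+ cells were called lower without rescaling, in a contrast where most genes that changed were lower. Averaged over the 4 stimulated doses, 26 of 44 members fell, 8 of 9 G1 control, 17 of 19 replication and 1 of 16 mitosis genes, and 1 mitosis gene rose. Of all 10217 genes 41.2% fell and 4.48% rose. The medians were -0.27 for G1 control, -0.21 for replication and -0.01 for mitosis genes, against -0.14 for all genes. That shift was 0.00 after quantile normalization, which called 7 members lower and 11 higher (12.7% and 14.1% of all genes), and edgeR called 6 lower and 9 higher (13.1% and 15.9%). By class, quantile normalization called 3 of 9 G1 control genes lower and 0 higher, 4 of 19 replication genes lower and 2 higher, and 0 of 16 mitosis genes lower and 9 higher; edgeR called 2 and 0, 4 and 2, and 0 and 7. In each of these fits 2 G1 control genes had a positive difference. How many members of each class passed thus depended on the scaling, and so did the direction for the mitosis genes. B cell markers rose in the same contrast, 10 of 14 with a median of 0.44, while 6 of 11 T cell markers fell and 1 rose and 2 of 4 CD8 and cytotoxic markers fell; the part of these markers was not tested. With the B cell marker level as a covariate 28 members fell (45.3% of all genes), 24 of them among the 26, and Birc5 no longer passed.

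Cyclin D2 and Cdk6, 1 of its kinases, were lower under each scaling. Ccnd2 averaged 45.5 ± 2.9 RPM with PD-1 engaged and 74.3 ± 6.9 RPM without at 10000 ng/ml (SD, n = 3 each). At 1000 ng/ml it had 41.2 and 46.6 RPM engaged, against 77.6 and 88.7 RPM not engaged, and at 100 ng/ml 33.9 and 20.2 RPM engaged, against 48.9 and 64.4 RPM not engaged. At 10 ng/ml it had 22.8 and 27.1 RPM, against 31.0 and 29.9 RPM. The engaged libraries were below the unengaged ones at every dose, 0 ng/ml included (19.5 and 23.8 RPM, against 30.6 and 36.8 RPM), and the mean difference over stimulated doses was -0.74 ± 0.09 (adjusted p = 7.76e-06; -0.55 after quantile normalization). Cdk6 had 22.2 and 27.4 RPM engaged, against 44.2 and 44.7 RPM not engaged at 1000 ng/ml, and a mean difference of -0.52 ± 0.07 (adjusted p = 3e-05; -0.33 after quantile normalization). Ccnd3 fell by 0.27 (-0.16 after quantile normalization, called; not called by edgeR). E2f1 averaged -0.34 ± 0.08 (adjusted p = 0.00235) and was not called after quantile normalization (-0.18).

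Among replication genes the helicase subunits Mcm4 and Mcm2 fell under each scaling. Mcm4 had 47.9 and 41.8 RPM engaged, against 66.8 and 75.7 RPM not engaged at 100 ng/ml, and its mean difference was -0.30 ± 0.04 (adjusted p = 5.57e-05; -0.12 after quantile normalization). Mcm2 had 89.99 and 94.4 RPM, against 122 and 128 RPM, and a mean difference of -0.28 ± 0.05 (adjusted p = 0.000235; -0.14 after quantile normalization). Both were apart at that dose, whereas at 10000 ng/ml Mcm4 had 69.2, 64.8 and 64.8 RPM engaged, against 65.6, 70.0 and 70.3 RPM not engaged, which overlap. Without 2C11 both genes were lower and apart too. At 0 ng/ml Mcm4 had 47.8 and 45.3 RPM engaged, against 57.6 and 58.7 RPM not engaged. Mcm2 had 60.2 and 73.9 RPM engaged there, against 78.2 and 85.6 RPM not engaged. Cdc6 fell by 0.34 ± 0.06 (adjusted p = 0.000296; not called after quantile normalization, -0.17). Pcna was at -0.14 ± 0.05 (adjusted p = 0.0193), and its sign was positive by edgeR.

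Of the 16 mitosis genes 8 had a positive and 8 a negative difference. Birc5, the survivin subunit of the chromosomal passenger complex, rose by 0.19 ± 0.06 (adjusted p = 0.0107). At 1000 ng/ml it had 209.7 and 196 RPM engaged, against 153 and 164 RPM not engaged. Top2a fell by 0.15 ± 0.05 (adjusted p = 0.0147), with a sign that was positive by edgeR. Mki67 averaged -0.10 ± 0.13 (adjusted p = 0.543), positive after quantile normalization and by edgeR. The higher calls after quantile normalization were 9 mitosis genes with Gmnn, the inhibitor of Cdt1, and the thymidylate synthase Tyms.

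**Figure D4:**
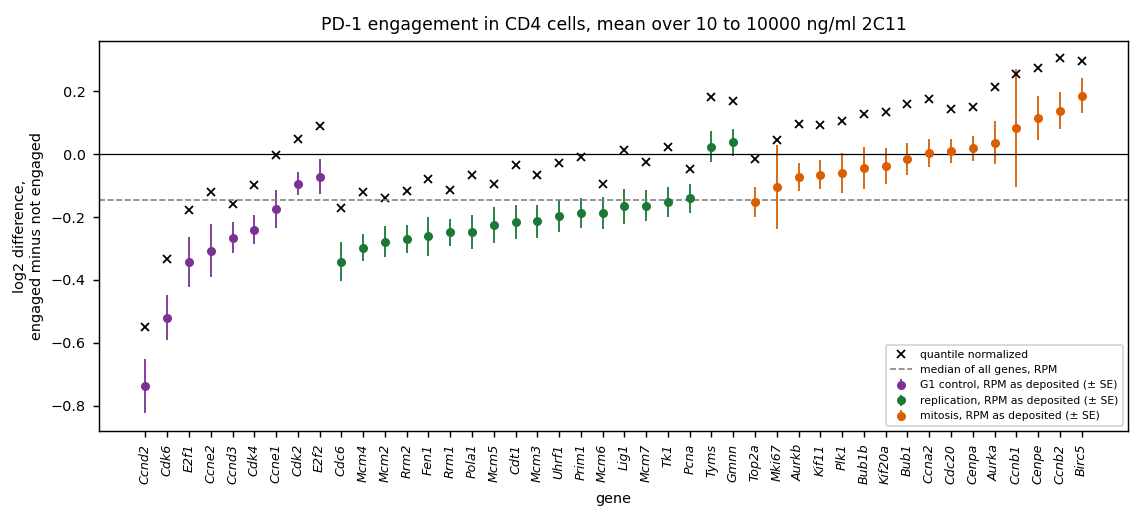
Log2 difference, PD-1 engaged minus not engaged, of each of the 44 members in CD4+ cells averaged over the stimulated doses, by class, with SE; crosses give the value after quantile normalization and the dashed line marks the median of all genes at -0.14. G1 control genes lie on the negative side, from -0.74 for Ccnd2, and mitosis genes lie around 0.

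The calls for PD-1 engagement in CD4+ cells were also counted dose by dose. At 0 ng/ml 13 members fell and 0 rose (13.6% and 0.763% of all genes; all-gene median -0.23), but 0 were called by quantile normalization or edgeR, and 0 to 2 when any 1 library was left out. At 10 ng/ml 0 were called (0.705% of all genes fell, 0.0489% rose). At 100 ng/ml 24 fell and 0 rose (37.3% and 1.91%; all-gene median -0.29); quantile normalization called 3 lower and 3 higher (8.49% and 8.24%), and 8 fell without the unengaged replicate 2 of that dose. At 1000 ng/ml 10 fell and 1 rose (19.4% and 3.3%; all-gene median -0.17), 4 or 5 in all when any 1 library was left out, and quantile normalization called 2 lower and 7 higher (6.21% and 8.25%).

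At 10000 ng/ml few members passed, and Mki67 and Ccnd2 differed most with PD-1 engaged. There 4 rose and 1 fell of 44, near the shares of all genes (5.89% and 2.58%), and the all-gene median was 0.02. Mki67 had 39.3, 92.0 and 86.1 RPM engaged, against 25.3, 30.1 and 28.2 RPM not engaged (1.26 ± 0.23, adjusted p = 0.00291), while at 1000 ng/ml it had 36.8 and 34.9 RPM engaged, against 73.1 and 49.0 RPM not engaged, and did not pass (-0.72, adjusted p = 0.0682). Ccnb2 had 28.2, 25.1 and 25.8 RPM engaged, against 20.1, 19.2 and 19.97 RPM (0.40, adjusted p = 0.019), and the kinesin Cenpe had 15.4, 17.3 and 14.4 RPM, against 10.8, 10.9 and 10.96 RPM (0.49, adjusted p = 0.0163). E2f2 had 21.8, 21.3 and 18.1 RPM, against 15.3, 16.6 and 16.7 RPM (0.31, adjusted p = 0.0449). All 4 were apart between the groups. Ccnd2 was the 1 that fell (-0.69 ± 0.15, adjusted p = 0.00856). With 1 library left out 2 to 5 passed, 2 of them without unengaged replicate 1 or 3 and 3 without engaged replicate 2, and Mki67 and Ccnd2 passed each time. B cell markers summed to 876 to 1250 RPM engaged and 588 to 940 RPM not engaged at this dose. With that level as a covariate 2 members rose and 6 fell (2.9% and 7.28% of all genes), Mki67 and Ccnd2 among them.

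The effect of PD-1 engagement was lower in CD4+ cells than in the hybridoma for 12 members and higher for 0, against 12.2% and 0.899% of all genes, whose median difference was -0.14. They were 6 G1 control genes, led by Cdk6 (-0.59 ± 0.12, adjusted p = 0.00351) and Ccnd2 (-0.58 ± 0.14, adjusted p = 0.00906), and 6 replication genes. With same-number libraries as a block 26 members were lower and 1 higher, against 36.5% and 2.88% of all genes: 7 G1 control, 16 replication and 3 mitosis genes were lower and 1 mitosis gene was higher. The numbers pair libraries in the hybridoma but are only a shared number in CD4+ cells. Without the block and without unengaged CD4+ replicate 2 at 100 ng/ml, or without engaged replicate 1 at 10 ng/ml, 7 passed. Quantile normalization left Ccnd2, Ccnd3 and Cdk6 as the 3 lower and called Birc5, Ccnb2 and Cenpe higher (2.06% and 2.49% of all genes). Among other genes of the pathway in CD4+ cells, 16 of 48 replication genes, 12 of 58 mitosis genes and 7 of 14 G1 genes were called lower with PD-1 engaged and 1, 4 and 1 higher, against 41.2% and 4.48% of all genes. After quantile normalization the balance turned, with 1, 0 and 2 lower and 8, 23 and 2 higher (12.7% and 14.1% of all genes), and edgeR called 1, 1 and 3 lower and 8, 23 and 2 higher. Cdkn2a rose by 0.37 and Cdkn1b by 0.15 on the log2 scale, and both were called higher under each scaling. Cdkn1a was at -0.25 (adjusted p = 0.00108 in limma) and was not called after quantile normalization or by edgeR. In the hybridoma none of these lists had a call in limma.

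Several members start at more than 1 cluster, and for some a cluster passed where another did not; positions are those of the deposited mm9 tables, and no mm9 annotation was used to place them in exons or introns. In CD4+ cells at 10000 ng/ml 38.2% of all clusters fell and 26.2% rose. The upstream cluster of Ccnd3 at chr17:47642045-47642170 on the plus strand averaged 8.89 ± 0.95 RPM at 10000 ng/ml and 49.0 ± 0.27 RPM at 0 ng/ml (-2.34 ± 0.11, adjusted p = 3.68e-12; SD, n = 3 and 2). A second cluster at chr17:47730435-47730489 averaged 113 ± 13.02 RPM and 169 ± 24.8 RPM at the same doses (-0.57 ± 0.11, adjusted p = 0.00015). The other 2 measured clusters of Ccnd3 were low and did not pass: the one at chr17:47730694-47730739 averaged 1.33 ± 0.31 RPM and 1.47 ± 0.14 RPM (-0.09 ± 0.21, adjusted p = 0.709), and the one at chr17:47731254-47731314 averaged 2.77 ± 0.24 RPM and 3.85 ± 0.081 RPM (-0.36 ± 0.18, adjusted p = 0.0865). All 6 clusters of E2f2 fell, by 1.62 to 2.70 on the log2 scale, and both clusters of Cdk6 rose (0.98 and 0.55). For Cdk2 and Mcm7 the clusters at chr10:128141615-128141657 (-1.15) and chr5:138612416-138612498 (-1.04), on the minus strand, fell, while the other cluster of each did not pass (-0.11 each), though it did after quantile normalization (-0.26 and -0.23).

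The first start cluster of Uhrf1 fell in both cell types. That cluster, at chr17:56442792-56442869 in the hybridoma, averaged 28.6 ± 2.6 RPM at 10000 nM and 62.4 ± 13.3 RPM at 0 nM (-1.09 ± 0.15, adjusted p = 1.57e-05). Its second cluster, at chr17:56443679-56443770, averaged 12.9 ± 1.1 RPM and 14.8 ± 2.0 RPM (-0.18 ± 0.18, adjusted p = 0.459). In CD4+ cells the first cluster fell by 0.42 ± 0.11 and the second was at 0.11 ± 0.14 (adjusted p = 0.512; called higher after quantile normalization, 0.33). The differences between clusters of a gene were not tested.

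**Figure D5:**
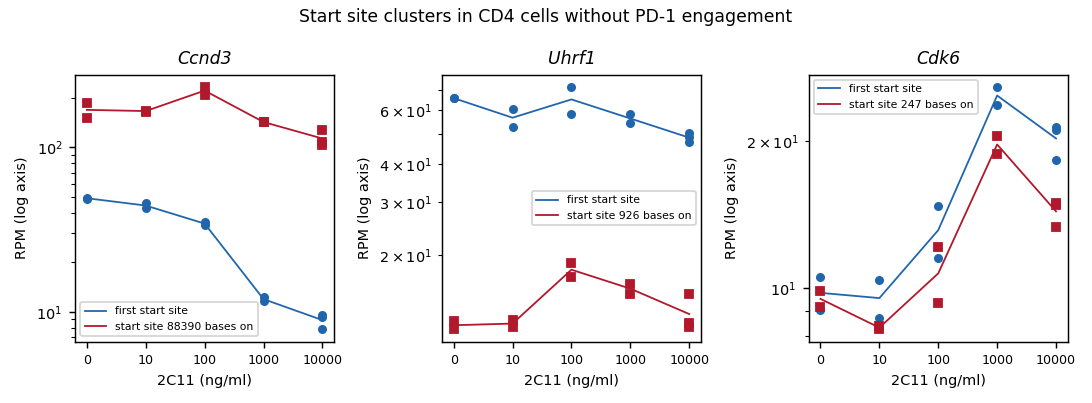
RPM of the start clusters of Ccnd3, Uhrf1 and Cdk6 with at least 5 RPM in CD4+ libraries without PD-1 engagement, by 2C11 dose in ng/ml, on a log axis; points are libraries and lines join group means. The upstream Ccnd3 cluster declines to 8.89 RPM at 10000 ng/ml, against 49.0 RPM at 0 ng/ml, while its second cluster is at 113 RPM there.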

How the data were processed

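CAGE tags were measured in 48 libraries of total RNA extracted with TRIzol, per the labels' protocols. The submitters' processing notes name BWA 0.7.12, HISAT2 2.0.5 and the mm9 build, without their roles. The authors deposited 1 table per cell type with RPM per cluster of start sites, 18025 clusters in the hybridoma table and 17272 in the CD4+ table. The RPM worth of 1 tag, and so the depth, was fitted to the RPM values of each library. At least 99.98% of the values of each library were then whole tags (within 0.1 tag), so edgeR 4.0.16 could be run on recovered tags as an alternative. By that depth, 91 to 92.3% and 81.8 to 87.1% of tags lay in clusters. Clusters of several genes (356 and 371) or no gene (4477 and 3643) were left out of gene sums. The median depth was about 14738500 tags in the hybridoma and 10176500 in CD4+ cells, which sets the precision of low values.

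A gene entered the test if 2 or more libraries had 1 RPM or more of it, which held for all 44 members; the test was run with limma 3.58.1 (R 4.3.3, trend) on log2(RPM + 1) with 1 mean per group. P-values were adjusted by Benjamini and Hochberg over all genes of a table, and an adjusted p under 0.05 is called. Fold changes are on the log2(RPM + 1) scale, which understates those of low genes. Contrasts were each dose against 0, and PD-1 engaged against not engaged at each dose and as a mean over stimulated doses; interactions used both tables. Alternatives were a pseudocount of 0.25, no low filter, the highest cluster of a gene, quantile normalization, edgeR, a replicate block, leaving out libraries and a B cell marker covariate.

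Engaged and unengaged hybridoma libraries of 1 number deviated together from their group means at every dose (correlations 0.256 to 0.759). These numbers were therefore taken as pairs in the replicate block, but not in the main fit. Values are printed for up to 3 called members with the largest difference per class and contrast, and for Mki67, E2f1, Ccnd2 and Pcna; any others were named after their values were seen. From the other lists up to 3 called genes are named. Their counts under other scalings were added after the data were seen. Members, classes and lists were chosen with earlier results of these data known.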

Additional observations from a re-analysis of the deposited data

Results flagged for a closer look

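The response to stimulation differed between CD4+ cells and the hybridoma for 25 members, and the response to PD-1 engagement for 12, by an interaction test in limma. In stimulation 17 were higher and 8 lower in CD4+ cells, against 22.3% and 17.6% of all genes. Taken over all classes, the lower calls were thus near the share of all genes. By class they were 7 of 16 mitosis, 1 of 9 G1 control and 0 of 19 replication genes. After quantile normalization the counts were 13 and 10, against 23.7% each. In PD-1 engagement 12 were lower and 0 higher, against 12.2% and 0.899% of all genes. For stimulation (CD4+ minus hybridoma, log2), the values of the members that the naming rule gave and that passed were 1.47 for Mcm2, 1.33 for E2f1, 1.20 for Cdk6, 1.02 for Fen1 and 1.00 for Tk1. They were 0.75 for Pola1, 0.68 for Pcna, 0.55 for Cdc6, 0.55 for Uhrf1 and 0.52 for Mcm4. On the other side they were -1.44 for E2f2, -1.22 for Ccnb2, -0.91 for Cenpa, -0.58 for Top2a and -0.55 for Birc5. For PD-1 engagement they were -0.59 for Cdk6, -0.58 for Ccnd2, -0.43 for Ccnd3, -0.41 for E2f1, -0.30 for Cdc6, -0.29 for Mcm2 and -0.25 for Mcm4. The other members that passed were, for stimulation, 7 on the higher side (0.33 to 1.12, Cdk4 and Mcm3 among them) and 3 on the lower side (-0.78 to -0.46), and, for PD-1 engagement, 5 on the lower side (-0.34 to -0.22).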

How the results depend on the processing

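Over 57 pairs of a named member and a contrast, 345 of 370 values under other settings kept their direction and side of the threshold, 15 lost a call, 5 gained one and 5 changed sign. When 1 library was left out, 767 of 803 kept both, 33 lost a call, 1 gained one and 2 changed sign. The sign changed for Pcna in hybridoma stimulation (0.043 by edgeR) and in CD4+ PD-1 engagement (0.016 by edgeR), for Top2a there (0.0022 by edgeR), and for Mki67 there (0.044 by quantile normalization, 0.073 by edgeR). For Pcna in hybridoma PD-1 engagement it was -0.083 to 0.022 with 1 library left out.

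For hybridoma stimulation at 10000 nM, 1 member was called higher by quantile normalization, edgeR and the replicate block, and 20 lower by edgeR and without both dose 0 libraries of number 2. At 1000 nM edgeR called 16 and that omission left 13; at 100 nM the replicate block called 13, the B cell marker covariate 2 and that omission 1. For PD-1 engagement in the hybridoma the replicate block called 1 member over the stimulated doses, 6 at 1000 nM and 1 at 10000 nM. For the mean of CD4+ PD-1 engagement, quantile normalization called 11 higher and 7 lower and edgeR 9 and 6. At 0 ng/ml quantile normalization called 0, edgeR 0 and the covariate 22. At 10 ng/ml the highest cluster called 1 and the covariate 4, and at 100 ng/ml quantile normalization called 6 and edgeR 8. The covariate called 21 at 1000 ng/ml and 8 at 10000 ng/ml; it was added in CD4+ cells after the data were seen. Under it the all-gene medians were -0.26 at 0, -0.17 at 10, -0.29 at 1000 and -0.08 at 10000 ng/ml. The medians of the members were -0.31, -0.20, -0.31 and -0.06. For the difference in PD-1 engagement quantile normalization called 6 and the replicate block 27. The counts here and in the next paragraph compare settings with each other, not members with all genes. The causes were not tested.

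With 1 library left out, hybridoma stimulation called 0 to 1 members higher and 20 to 32 lower at 10000 nM, 13 to 29 at 1000 nM, 0 to 9 at 100 nM and 0 to 1 at 1 nM, and hybridoma PD-1 engagement 0 to 1 at 10 nM. CD4+ stimulation called 4 to 8 at 100 ng/ml and 0 to 1 at 10 ng/ml. CD4+ PD-1 engagement called 1 to 2 higher on average, 0 to 2 at 0 ng/ml, 8 to 24 at 100 ng/ml, 4 to 5 at 1000 ng/ml and 2 to 5 at 10000 ng/ml. The difference in PD-1 engagement gave 7 to 16, and the start clusters of members in the hybridoma 4 to 6, of 7. Same-number correlations were -0.108 to 0.192 between hybridoma doses and 0.013 to 0.255 between engaged and unengaged CD4+ libraries, so the replicate block there is only a shared number. Counting clusters shared with another gene was not run, since those clusters name no single gene.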

Other observations

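The 2 start clusters of Ccne2 had nearly equal tag numbers in every library. In both tables the first cluster ended at chr4:11118929 and the second lay at chr4:11119825. Their first bases were 920 bases apart in the hybridoma and 897 in CD4+ cells, as only the first base called for the first cluster differed. The ratio of the second to the first was 0.870 to 1.02 over 26 hybridoma libraries and 0.894 to 1.02 over 22 CD4+ libraries, and the second cluster is 1 base wide.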
